A study of Mus musculus with 2 samples.

Results

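The 10 genes described here encode heat shock proteins and chaperones, and they were taken from a fixed list by symbol. All 10 were found once among the 28009 genes counted in both libraries. The libraries held IL-10+ CD4+ T cells sorted from spleen or small intestine of anti-CD3-treated mice and captured on the 10x Genomics Chromium platform. There was 1 library per tissue, so tissues were compared without replicates, no test was possible, and every interval below is a 95% counting interval that covers counting error only. Per the study's methods, the mice were IL-10eGFP Foxp3mRFP double reporters aged 8 to 16 weeks, both groups were given anti-CD3 intraperitoneally on days 0 and 2, and tissues were taken 4 h after the last dose. The antibody activates T cells through their receptor and causes a passing inflammation of the small intestine, and no untreated library was analysed here. Cells with Foxp3 were not gated out of these libraries, and the number of mice behind each was not given in the sources used here.

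Heat shock proteins bind unfolded protein chains and help them fold with the use of ATP. Hspa8 is the constitutive cytosolic HSP70, whereas Hspa1a and Hspa1b encode the stress-inducible HSP70. Dnaja1 and Dnajb1 are J proteins that deliver clients to HSP70 and stimulate its ATPase, and Hsph1 (HSP110) exchanges its nucleotide. Hsp90aa1 and Hsp90ab1 encode the inducible and the constitutive cytosolic HSP90, which mature kinases and steroid receptors. Hspd1 and Hspe1 encode the mitochondrial chaperonin HSP60 and its lid HSP10. Heat, oxidants and misfolded protein activate the transcription factor HSF1, which binds repeats of the letters GAA in either orientation, and enzymatic digestion of tissue is known to induce some of the same genes along with Fos and Jun family genes.

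Hspd1 (chr1:55077835-55088243, minus strand) and Hspe1 (chr1:55088132-55091307, plus strand) lie head to head and overlap at their 5′ ends (GRCm38, GENCODE). Hspa1a (chr17:34969190-34972156) and Hspa1b (chr17:34956436-34959238) are neighbouring copies on the minus strand. The other members lie on chromosomes 4 (Dnaja1), 5 (Hsph1), 8 (Dnajb1), 9 (Hspa8), 12 (Hsp90aa1) and 17 (Hsp90ab1). RefSeq promoter entries (GRCm38.p6) were found for 7 of the 10 members and were searched for the heat shock dyads GAANNTTC and TTCNNGAA, each of which reads the same on both strands. Of all 32851 promoters, 12.8% held at least 1 dyad in the 250 bases before the start and 0.14% held 3 or more. Of the 12 entries of these members 7 held a dyad, and Dnajb1 was the member with none. A stretch near the starts of Hspe1 and Hspd1, inside the annotated Hspd1 gene and in promoter entries of both genes, held 3 overlapping dyads and is shown with the promoter of Hspa1a, the inducible gene; capitals mark the dyads.
Hspd1 and Hspe1, chr1:55088053-55088082, plus strand: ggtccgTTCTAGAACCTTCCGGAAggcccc
Hspa1a, chr17:34972157-34972406, minus strand: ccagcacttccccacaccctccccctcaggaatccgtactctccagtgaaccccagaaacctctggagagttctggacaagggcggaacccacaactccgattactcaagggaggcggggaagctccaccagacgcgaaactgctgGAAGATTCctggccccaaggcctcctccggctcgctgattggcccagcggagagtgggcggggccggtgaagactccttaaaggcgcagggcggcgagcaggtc
The 3 dyads began 89 bases before the Hspe1 start and 144 bases before one of the Hspd1 starts, and the entry of the other Hspd1 start held 0. The Hspa1b promoter matched that of Hspa1a at 247 of 250 positions and held the same dyad, GAAGATTC, 104 bases before the start. Hsph1 held TTCTCGAA 33 bases before a start, and Dnaja1 held GAAAATTC 124 bases before a start. A match is only a description of these letters.

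The splenic library held 1738 cell barcodes and 11103530 UMIs (unique molecular identifiers, each standing for 1 captured transcript), and the intestinal library held 1474 barcodes and 5693395 UMIs. No barcode was shared between them. After the quality filter 1648 splenic and 1339 intestinal cells were kept, with medians of 5728 and 3756 UMIs, and 3 of the kept cells in each library were called as doublets. T cell markers were found throughout, with Cd3e in 90.7% and 92.8% of the splenic and intestinal cells and Il10 in 65.8% and 72.4%. Cd4 had a UMI in 68.3% and 73.1%. Together Cd4, Cd8a and Cd8b1 measured 220 CPM in spleen, where Cd4 alone was at 207 CPM and Cd8a had no UMI. In small intestine they measured 762 CPM, with Cd4 alone at 391 CPM, so CD8 transcripts were present there. Of 10 myeloid genes 9 had a UMI in spleen, all but Csf1r, and 8 in small intestine, all but Lyz2 and S100a9, and they summed to 177 and 215 CPM, mostly from Cst3 (57.7% and 41.9% of cells). Epithelial genes summed to 30.3 and 52.3 CPM, with Epcam in 10.6% of splenic and Lgals4 in 10.6% of intestinal cells. The part of such transcripts in the results was not tested. The B cell gene Cd79a had a UMI in 0.121% of splenic and 0.747% of intestinal cells. Levels below are UMIs summed over cells per 1000000 UMIs (CPM), in which fewer cells with a transcript and fewer transcripts per cell cannot be told apart. They are not per length, and 3 UMIs came to 0.278 CPM in spleen and 0.552 CPM in small intestine. No cell type in these sorts should lack the constitutive chaperones, so no share of cells that free RNA alone would give could be measured for them.

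The 10 members took 0.448% of all UMIs in spleen and 0.306% in small intestine. The mitochondrial chaperonin pair and Hsph1 differed most, all 3 being more than 2-fold higher in the splenic library, whereas Dnajb1 was lower there. Hspd1 measured 258 CPM in spleen and 91.7 CPM in small intestine, a ratio of 2.82 (2.56 to 3.10). Hspe1 measured 314 and 137 CPM, a ratio of 2.28 (2.11 to 2.47). Both parts of the mitochondrial chaperonin were thus higher in spleen. Cells with a Foxp3 UMI made up 20.4% of the splenic and 2.17% of the intestinal cells, and without them the log2 ratio of Hspd1 was 1.37 in place of 1.49.

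Among the HSP70 machinery, Hspa8 was the most abundant member in both libraries, at 1925 CPM in spleen and 1384 CPM in small intestine (ratio 1.39, 1.35 to 1.43). Hsph1 was scarce, at 27.2 and 9.94 CPM, with a ratio of 2.74 (2.04 to 3.73). Dnaja1 lay at 287 CPM in spleen and 309.6 CPM in small intestine, a ratio of 0.928 (0.874 to 0.985). The 2 J proteins therefore did not follow Hspa8: Dnajb1 measured 60.9 CPM in spleen and 88.0 CPM in small intestine, where it was 1.44-fold higher (1.28 to 1.63).

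The inducible Hspa1a gave 138 UMIs in spleen and 60 in small intestine, which came to 12.8 and 11.05 CPM. Its ratio of 1.16 had an interval from 0.848 to 1.59, so no difference between tissues was detectable at this depth. Hspa1b gave 15 and 12 UMIs, too few to compare. Hspa1a and Hspa1b are identical in parts: 47.5% of the 98-base stretches of the Hspa1a transcript are also in Hspa1b, although none in its last 500 bases are. How reads were split between the copies was not tested and is uncertain, and Gm20481 lies on the opposite strand of Hspa1a.

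Hsp90aa1 and Hsp90ab1 were both higher in spleen. Hsp90aa1 measured 522 CPM against 319.9 CPM (ratio 1.63, 1.55 to 1.72), and Hsp90ab1 1075 CPM against 706 CPM (ratio 1.52, 1.47 to 1.58). Both fell under 1.5-fold when each cell counted the same or when cells were thinned to equal depth (log2 ratio 0.55 each after thinning).

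**Figure D1:**
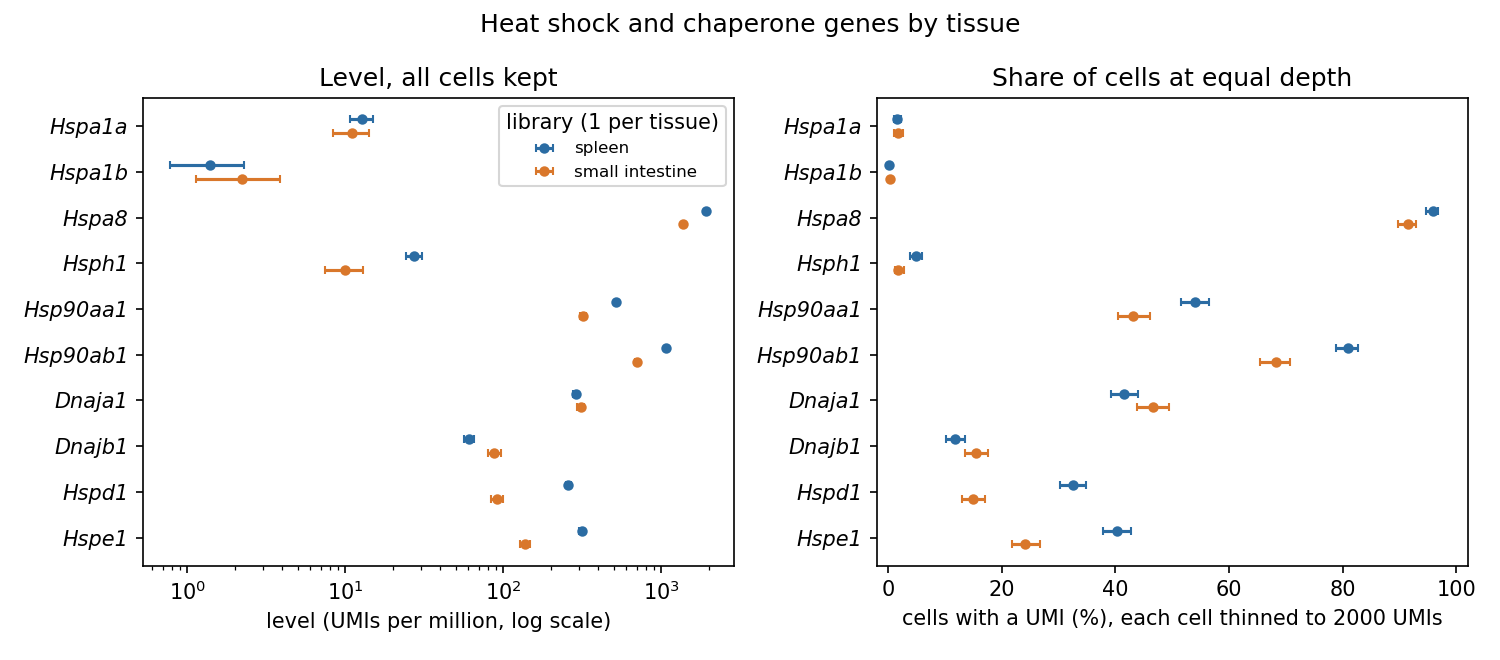
Left, level of each of the 10 genes in CPM on a log axis, for the 1648 splenic and 1339 intestinal cells kept. Right, percent of cells with a UMI after thinning each cell to 2000 UMIs; points are pooled values, bars are 95% counting intervals, and Hspd1, Hspe1 and Hsph1 lie apart while Dnajb1 is lower in spleen in level.

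A gene was counted as changed when its ratio was past 1.5-fold in either direction, among genes with at least 20 expected UMIs in the smaller group. By that rule 5 of the 9 members with enough UMIs (Hspd1, Hsph1, Hspe1, Hsp90aa1 and Hsp90ab1) were higher in spleen, against 23.7% of 8987 genes tested, and 0 were lower, against 21%. The median log2 ratio was 0.61 for the 9 members and 0.03 for all genes tested.

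As deposited, the libraries differed 1.53-fold in median depth, so shares of cells with a UMI were also taken after thinning each cell to 2000 UMIs, which left 1624 splenic and 1230 intestinal cells. Hspa8 then had a UMI in 95.8% of the splenic and 91.5% of the intestinal cells (99.0% and 96.5% as deposited). For Hspd1 the share was 32.5% (30.2 to 34.9) in spleen and 14.9% (12.9 to 17.0) in small intestine (58.9% and 26.9% as deposited). For Hspe1 the shares were 40.3% and 24.1% (72.3% and 39.2% as deposited). Hsp90ab1 was found in 80.8% and 68.2% (94.1% and 84.2%), and Hsp90aa1 in 54.1% and 43.2% (79.9% and 62.4%). Intervals lay apart with the higher share in spleen for Hspa8, Hsp90aa1, Hsp90ab1, Hsph1, Hspd1 and Hspe1. No like count over all genes is given here, so this describes the members only. Dnajb1 was the 1 member apart in the other direction, with 11.8% (10.2 to 13.4) in spleen and 15.4% (13.5 to 17.6) in small intestine, although as deposited its share was 31.0% in spleen and 29.1% in small intestine. Dnaja1 was found in 41.6% (39.2 to 44.0) and 46.7% (43.8 to 49.5), intervals that just overlapped.

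Cycling cells were those with at least 20 UMIs per 10000 from a list of DNA replication and mitosis genes that holds no member. They made up 422 (25.6%) of splenic but 99 (7.39%) of intestinal cells, with medians of 9029.5 and 6110 UMIs, and 164 and 58 cells lay within 2-fold of the cut. In spleen, Hsp90aa1 differed most with cycling, with 447 CPM in non-cycling and 646 CPM in cycling cells (ratio 1.45, 1.37 to 1.52). Dnaja1 measured 263 and 328 CPM (1.25, 1.16 to 1.34) and Hspa8 1807 and 2119.6 CPM (1.17, 1.14 to 1.21). Hspe1 lay the other way, at 331 and 285 CPM (0.862, 0.802 to 0.926), while its partner Hspd1 differed by less than its interval (252 and 269 CPM). None of 9 splenic members was past 1.5-fold in either direction, against 13.6% of 8322 genes higher and 9.6% lower.

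In small intestine, cycling cells had more Hspa8, at 2054 against 1291 CPM (ratio 1.59, 1.499 to 1.69), and more Hsp90aa1, at 457 against 301 CPM (1.52, 1.34 to 1.72). Hsp90ab1 measured 870.3 against 683 CPM (1.27, 1.16 to 1.39), although its log2 ratio of 0.35 became -0.06 with phases called by cyclone, a classifier of cell cycle phase. In Ccl5-high cells, defined below, Hsp90aa1 measured 374 CPM in 82 cycling cells against 302 CPM in non-cycling ones, and Hsp90ab1 765 against 675 CPM. In Ccl5-low cells Hsp90aa1 measured 698 CPM in 17 cycling cells against 296 CPM, and Hsp90ab1 1178 against 743 CPM. Those 17 cells gave 118 of the 302 UMIs of Hsp90aa1 in cycling cells. The other members with enough UMIs had intervals that included 1, among them Hspd1 (1.22, 0.937 to 1.57) and Dnajb1 (0.806, 0.585 to 1.09). Over all cycling cells Hspa8 and Hsp90aa1, 2 of 7 members, were past 1.5-fold higher, against 10.8% of 3905 genes. None was lower, against 10.9%. Intestinal cycling cells were mostly in a cluster led by Cd8b1 and Cd8a, and with total UMIs taken without mitochondrial, ribosomal, Ccl5, Gzma and Gzmb UMIs 0 of the 7 were past 1.5-fold. Whether the effects of cycling differed between the tissues was not tested.

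Ccl5-high cells were those with at least 20 Ccl5 UMIs per 10000, and they were compared among non-cycling cells. There were 165 such cells in spleen beside 1061 Ccl5-low cells, and 1090 in small intestine beside 150, with 78 and 85 cells within 2-fold of the cut. In spleen, Hspd1 measured 161 CPM in them and 264 CPM in Ccl5-low cells (ratio 0.611, 0.507 to 0.730), Hspe1 252 and 342 CPM (0.739, 0.637 to 0.853), Hsp90aa1 363 and 458 CPM (0.792, 0.700 to 0.894) and Hsp90ab1 857 and 1062 CPM (0.806, 0.745 to 0.872). Dnajb1 measured 57.9 and 57.1 CPM (1.01, 0.730 to 1.38). Of 8 members, 0 were past 1.5-fold higher, against 5.71% of 4358 genes, and 1, Hspd1, was lower, against 8.95%. It was no longer past 1.5-fold with the mean over cells or with the cut at 10.

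In small intestine, Hspe1 measured 131 CPM in Ccl5-high and 179 CPM in Ccl5-low cells (ratio 0.731, 0.591 to 0.911) and Hspa8 1271 and 1436 CPM (0.885, 0.822 to 0.953). The median log2 ratio of all genes tested was -0.14 in this comparison. For Hspa8 the log2 ratio of -0.18 became -0.05 without mitochondrial, ribosomal, Ccl5, Gzma and Gzmb UMIs in the total. It became -0.04 when ratios were divided by the median ratio. Hspd1 lay at 88.9 and 92.2 CPM (0.965, 0.722 to 1.31), and Hsp90aa1 at 302 and 296 CPM (1.02, 0.869 to 1.20). None of 7 members was past 1.5-fold, against 6.87% of 3521 genes higher and 11.2% lower. The few Hspa1a UMIs split in opposite directions. In spleen 21 UMIs in Ccl5-high cells gave 25.9 CPM and 69 in Ccl5-low cells gave 11.7 CPM, while in small intestine 44 UMIs gave 10.5 CPM and 13 gave 22.6 CPM. These UMIs came from few cells and fell short of the UMI minimum.

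Because the 2 libraries held these states in different shares, the tissues were also compared within each state. Hspd1 stayed higher in spleen in all 3, with ratios of 2.47 (1.95 to 3.18) in cycling, 1.81 (1.47 to 2.22) in Ccl5-high and 2.86 (2.18 to 3.84) in Ccl5-low cells. Hspe1 gave 2.004, 1.93 and 1.91, with every lower bound above 1.5. For Hsp90aa1 the ratios were 1.41, 1.20 and 1.55, and for Hsp90ab1 1.31, 1.27 and 1.43. Cycling cells were not split by Ccl5: 373 of 422 were Ccl5-low in spleen, and 82 of 99 were Ccl5-high in small intestine. In cycling Ccl5-low cells, 17 of them intestinal, Hsp90aa1 measured 671 CPM in spleen and 698 CPM in small intestine. There Hsp90ab1 measured 1164 and 1178 CPM, Hspd1 275 and 172 CPM, and Hspe1 292 and 207 CPM. Cycling Ccl5-high cells gave 413 and 374, 902 and 765, 220 and 87.4, and 218 and 120 CPM for these genes in the same order. Hspa8 was 1.27-fold and 1.28-fold higher in spleen in the 2 non-cycling states, but in cycling cells it measured 2119.6 and 2054 CPM, a ratio of 1.03 (0.974 to 1.09). Dnajb1 was lower in splenic Ccl5-high (0.645, 0.466 to 0.876) and Ccl5-low cells (0.608, 0.455 to 0.826), whereas in cycling cells the ratio of 0.925 had an interval from 0.678 to 1.28.

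Of 7 members, 2 were past 1.5-fold higher in spleen among cycling cells (22% of 4065 genes) and 0 lower (12%). Among Ccl5-high cells 2 were higher (14.5% of 4408 genes) and 1 lower (17.5%), and among Ccl5-low cells 3 were higher (18.1% of 3548 genes) and 1 lower (15.9%). Hspd1 and Hspe1 were past 1.5-fold in each state.

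**Figure D2:**
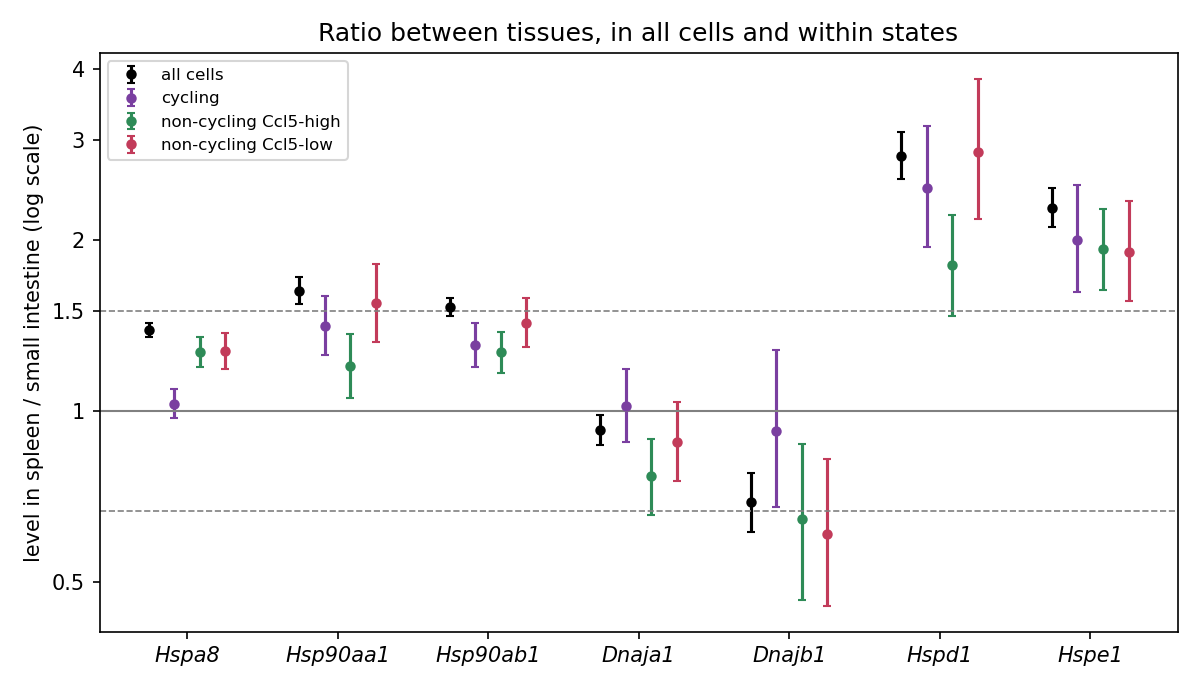
Level in spleen over level in small intestine, on a log axis, for the 7 genes with enough UMIs in every state, in all cells and within cycling, non-cycling Ccl5-high and non-cycling Ccl5-low cells. Points are ratios of CPM with 95% counting intervals, the solid line marks 1 and the dashed lines 1.5-fold either way; Hspd1 and Hspe1 lie above the upper dashed line in every state.

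Cells of each library were also grouped into clusters of a nearest neighbour graph built without any member, any other chaperone gene or any dissociation-associated gene, which gave 8 splenic and 6 intestinal clusters. Splenic cluster 8 (117 cells), led by Cnn3, Itm2a, Bach2, Atad3a and Pou2af1, stood out. It had the highest splenic level of 5 members, with 553 CPM of Hspd1, 629 CPM of Hspe1, 859.9 CPM of Hsp90aa1, 1639 CPM of Hsp90ab1 and 40.1 CPM of Hsph1. Hspa8 was as high there as in cluster 7 (2272 and 2279 CPM), whereas Dnajb1 and Hspa1a were low, at 43.6 and 2.29 CPM. Members took 0.631% of the UMIs of cluster 8, and 2.56% of its cells were cycling.

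The naive or central memory-like splenic cluster 2 (267 cells), led by Pik3ip1, Ccr7, Txnip, Evl and Pdcd4, was at the other end. It had the lowest Hspd1 (78.1 CPM), Hsp90aa1 (221 CPM), Hsp90ab1 (594 CPM), Hsph1 (9.88 CPM) and Dnaja1 (198 CPM), and members took 0.311% of its UMIs. Hspd1 thus spanned 7.07-fold over splenic clusters, and its level in cluster 2 was close to that of the intestinal clusters. Hspe1 did not follow it there, since cluster 2 had 281 CPM of Hspe1 against 285 CPM in the Tfh-like cluster 1. Cluster 2 was also the shallowest splenic cluster (median 3760 UMIs, against 7260 in cluster 8) and had the highest Hspa1a, at 35.9 CPM (25.7 to 48.9). Cluster 6 was next for Hspa1a, at 24.9 CPM, and its interval overlapped. The 138 splenic Hspa1a UMIs came from 37 cells, some with several, so these counting intervals understate the spread. The dissociation-associated genes described further on summed to 6066 CPM in cluster 2, the highest of the splenic clusters, and to 3887 CPM in cluster 8.

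Between these ends, the order of Hspd1 was the Treg-like cluster 3 (314 CPM), cluster 7 (288 CPM), cluster 4 (264 CPM), the Tfh-like cluster 1 (216 CPM), the Ccl5-high cytotoxic-like cluster 6 (193 CPM) and cluster 5 (184 CPM), and among these neighbours only clusters 4 and 1 had intervals apart. Cycling cells made up 100% of cluster 4 and 84.6% of cluster 7. Hsp90aa1 was second highest in cluster 4 (742 CPM) but lay at 487 CPM in cluster 7, although both were cycling.

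Intestinal clusters were nearly level for members with at least 100 UMIs. Hspd1 ran from 78.2 CPM in cluster 6 to 97.7 CPM in cluster 1, a span of 1.25-fold, and Hsp90ab1 from 601 CPM in cluster 6 to 781 CPM in cluster 4. Of members with at least 100 UMIs, 6 of 9 spanned more than 2-fold over the splenic clusters. These were Hspd1 (7.07-fold), Hsph1 (4.06), Hsp90aa1 (3.89), Hspe1 (3.17), Hsp90ab1 (2.76) and Hspa1a, which had 0 UMIs in cluster 7. Over the intestinal clusters 0 of 7 did, and the widest, Hspe1, spanned 1.55-fold. Intestinal Hspa1a (60 UMIs) and Hsph1 (54 UMIs) fell short of that minimum and spanned 8.02-fold and 8.96-fold. Both genes are therefore in the splenic count only, so the counts cover different members. No like span over all genes is given here, and the libraries differ in their number of clusters. Intestinal cluster 4, led by Il17a, Tmem176b and Tmem176a, had the highest Hspe1 (173 CPM), Hspa8 (1579 CPM), Hsp90ab1 and Dnajb1 (100.1 CPM), and members took 0.346% of its UMIs. For each of these genes the next cluster was close and its interval overlapped. Cluster 5 had 168 CPM of Hspe1 and 777 CPM of Hsp90ab1, cluster 3 had 1571 CPM of Hspa8 and cluster 2 had 95.5 CPM of Dnajb1.

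**Figure D3:**
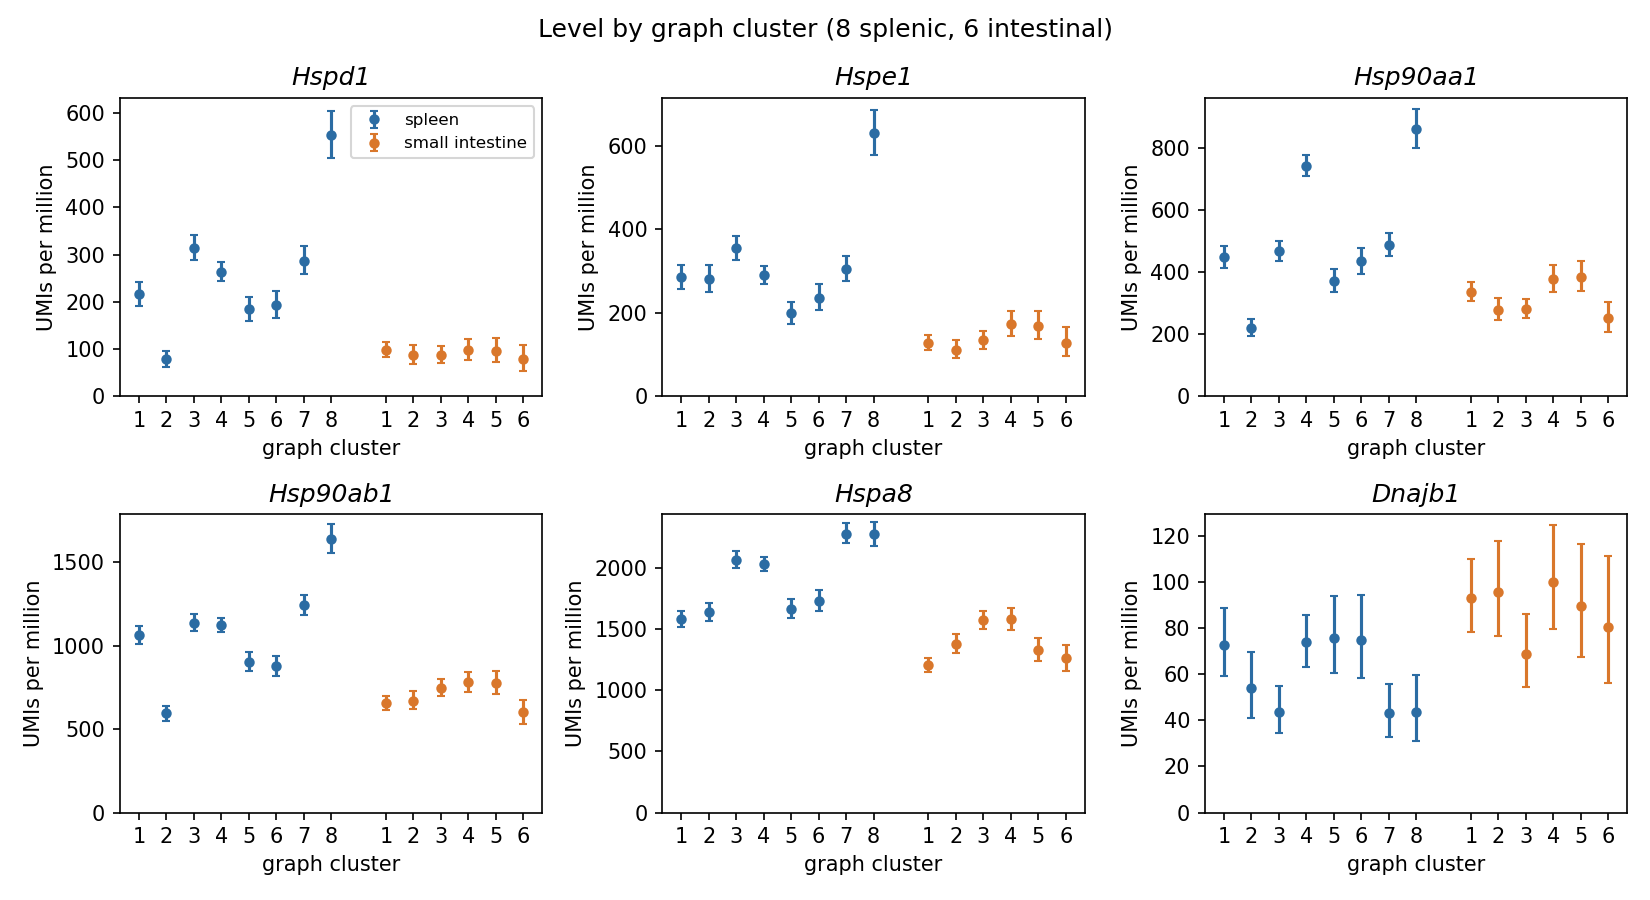
Level in CPM of 6 members in each of the 8 splenic and 6 intestinal graph clusters, with 95% counting intervals. Splenic cluster 8 is highest for Hspd1, Hspe1, Hsp90aa1 and Hsp90ab1 and splenic cluster 2 is lowest for Hspd1, Hsp90aa1 and Hsp90ab1, while the intestinal clusters lie close together.

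Across the 14 clusters, the genes whose log2 level was most like that of Hspd1 and Hspe1 together were Atad3a (Pearson r = 0.98), Mrpl17, Srm, Cct5 and Mif, all at 0.98 of 3942 genes compared, where the median r was 0.10. Atad3a encodes a mitochondrial inner membrane ATPase, Mrpl17 a mitochondrial ribosomal protein, Srm spermidine synthase and Cct5 a subunit of the cytosolic chaperonin TRiC. For the sum of Hspa1a, Hspa1b, Dnajb1 and Hsph1 the closest were Taf6l (0.80), Rab11b (0.79), Elmo1 (0.79), Atp6v1g1 (0.76) and Golph3 (0.75). Within the 6 intestinal clusters r with Hspd1 and Hspe1 was lower for each gene named. It was 0.52 for Cct5, 0.78 for Srm, 0.81 for Atad3a, 0.86 for Mrpl17 and 0.89 for Mif. For the second sum, r ran from 0.74 (Elmo1) to 0.97 (Golph3) within the intestinal clusters. Within the splenic ones it ran from 0.55 (Golph3) to 0.88 (Taf6l). The clusters share library and depth, so these values are a description over 14 points.

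Hspa1a was found in 37 splenic and 37 intestinal cells as deposited, 2.25% and 2.76% of cells. At 2000 UMIs per cell its variance was 3.60 times its mean in spleen and 2.46 times in small intestine, against 1.05 and 0.983 for Hsph1, 1.02 and 1.05 for Dnajb1 and 1.498 and 1.301 for Hspa8. Its copy Hspa1b, with 2 and 5 thinned UMIs, gave 0.999 and 2.198. Of the 25 splenic cells with a thinned Hspa1a UMI, 10 had 1 and 9 had 3 or more, with at most 8, and of the 21 intestinal cells 14 had 1 and 3 had 3 or more, with at most 5. Hsph1, at a like mean per cell, had no cell with 3 or more.

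At equal depth 26 splenic (1.60%) and 24 intestinal cells (1.95%) had a UMI of Hspa1a or Hspa1b. The splenic ones had more Dnajb1 than the other cells, at 173 against 61.3 CPM (ratio 2.82, 1.27 to 5.47, 9 UMIs), and the intestinal ones more Dnaja1, at 625 against 312 CPM (2.002, 1.34 to 2.88), and more Hsp90ab1 (1.48, 1.08 to 1.98). The interval of the other J protein included 1 in each case, with 0.976 (0.263 to 2.54) for intestinal Dnajb1 and 1.398 (0.850 to 2.17) for splenic Dnaja1. Hspa8 had intervals that included 1 (1.07, 0.869 to 1.30 in spleen and 1.09, 0.847 to 1.38 in small intestine), and splenic Hspd1 was at 96.2 against 225 CPM (0.427, 0.138 to 1.002, 5 UMIs). Cycling cells were as frequent among them as among the rest (26.9% and 25.8% in spleen). The mitochondrial share of UMIs was 2.49% in these splenic cells and 2.41% in the others, and the dissociation-associated genes summed to 1.72-fold (1.57 to 1.88) the level of the others in spleen and 1.29-fold (1.20 to 1.39) in small intestine. The part of tissue handling in these cells was not tested.

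**Figure D4:**
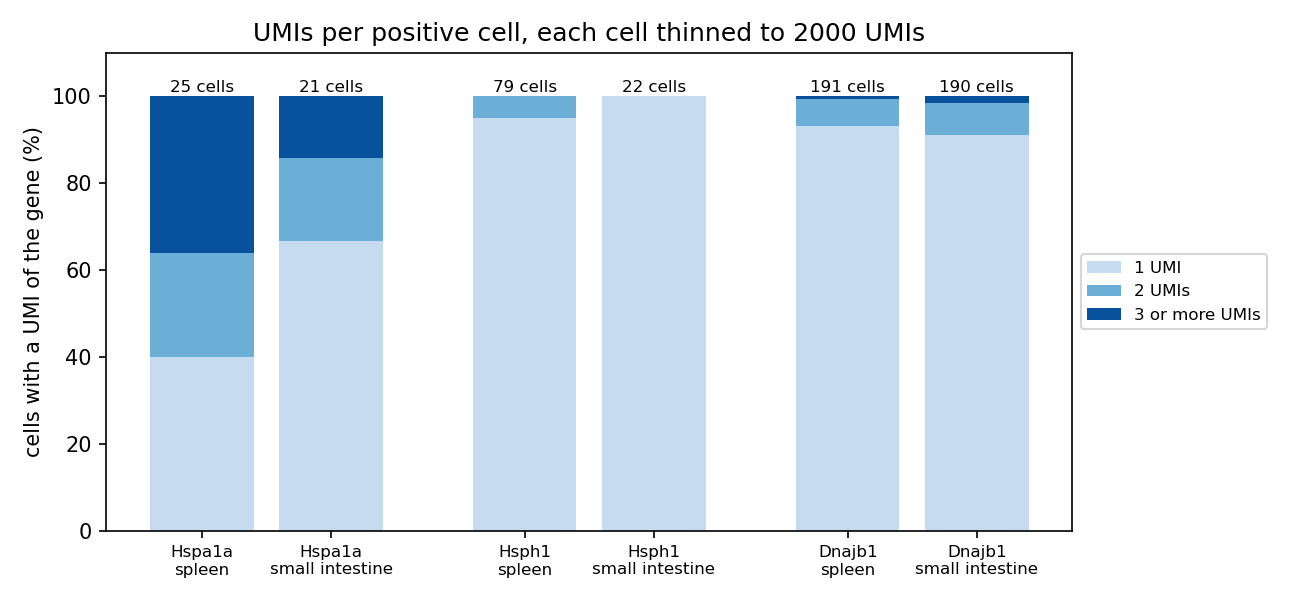
Percent of cells with 1, 2 or at least 3 UMIs among cells with any UMI of Hspa1a, Hsph1 or Dnajb1, by library, after thinning each cell to 2000 UMIs, with the number of such cells above each bar. Cells with 3 or more UMIs are 9 of 25 for splenic Hspa1a, 3 of 21 for intestinal Hspa1a and 0 of 79 and 0 of 22 for Hsph1.

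Over the 45 pairs of members the median Pearson r of thinned log values was 0.04 in spleen and 0.02 in small intestine, and the highest was 0.21, for Hsp90ab1 with Hspd1 in spleen (1624 cells). In counts this sparse such weak values are no finding. Hsp90ab1 (0.24), Hsp90aa1 (0.22) and Hspd1 (0.20) were related as much to the depth of the splenic cell as deposited.

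Dissociation-associated genes, a list of 25 immediate early and stress genes that holds no member, went opposite to most members. Per the study's methods, intraepithelial lymphocytes were taken with EDTA and lamina propria lymphocytes with collagenase IV, both at 37 °C, followed by a Percoll gradient. Which of these fractions the intestinal library held was not given in the sources used here, nor was the isolation of splenic cells. Isolation and tissue therefore cannot be told apart. Summed, the list measured 4841 CPM in spleen and 10498 CPM in small intestine. Of 23 measured genes, 17 were past 1.5-fold lower in spleen and 0 higher, with a median log2 ratio of -1.22. Of all 8987 genes tested 21% were lower and 23.7% higher, with a median log2 ratio of 0.03.

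The AP-1 gene Fosb was at 14.2 CPM in spleen and 129.8 CPM in small intestine (ratio 0.109, 0.0910 to 0.130), Gadd45b, a growth arrest gene, at 81.5 and 670.5 CPM (0.122) and the phosphatase gene Dusp1 at 126 and 564 CPM (0.223). The most abundant were Jund in spleen (1113 CPM, against 1264 CPM) and Junb in small intestine (2167 CPM, against 844 CPM). The ratio was above 1 for 3 measured genes, the metallothioneins Mt1 (1.15) and Mt2 (1.13) and the signalling inhibitor Socs3 (1.14). Many genes of the list, such as Fos, Egr1 and Nr4a1, are also induced by T cell receptor signalling. The mice behind both libraries had received anti-CD3 hours earlier, and its part in these levels was not tested. The list was lower in spleen within each state too, at 4229 and 8279 CPM in cycling, 5639 and 10500.3 CPM in Ccl5-high and 5151 and 13029.6 CPM in Ccl5-low cells. Beside it, the members gave no common direction. Dnajb1 and, by little, Dnaja1 were higher in small intestine, and Hspa1a was not distinguishable. Hspa8, Hsph1, Hsp90aa1, Hsp90ab1, Hspd1 and Hspe1 were higher in spleen, and Hspa1b had too few UMIs.

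**Figure D5:**
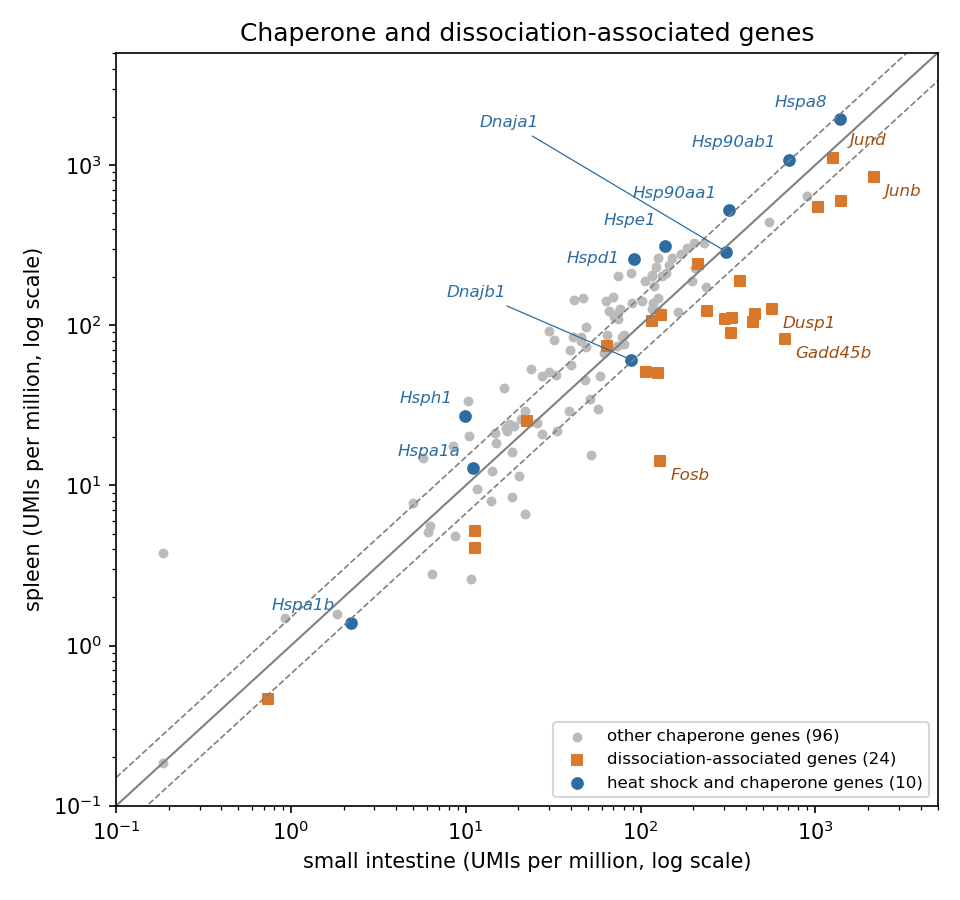
Level in spleen against level in small intestine, both in CPM on log axes, for the 10 members, 96 other chaperone genes and 24 dissociation-associated genes with a UMI in both libraries; the solid line marks equal levels and the dashed lines 1.5-fold. Most dissociation-associated genes lie under the lower dashed line, with Fosb, Gadd45b and Dusp1 farthest, while most chaperone genes lie above the solid line.

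The other chaperone genes mostly lay on the splenic side as well. Of 105 listed in 10 groups, 92 had enough UMIs, and 39 were past 1.5-fold higher in spleen and 10 lower (median log2 ratio 0.48), where 23.7% of all genes tested were higher and 21% lower. All 7 measured subunits of TRiC, the cytosolic chaperonin that folds actin and tubulin, were higher, from Cct2 (212 and 140.1 CPM, 1.51) to Tcp1 (204 and 74.2 CPM, 2.75). Among mitochondrial chaperones 7 of 12 were higher and 0 lower, led by Hspa9, the mitochondrial HSP70 (144 and 41.8 CPM, 3.46, 3.01 to 3.99), and its J protein Dnaja3 (33.7 and 10.3 CPM, 3.27). The HSP90 co-chaperones were 7 of 18 higher and 1 lower: Fkbp4 stood at 92.0 and 29.8 CPM (3.08) and Unc45a at 29.8 and 57.1 CPM (0.522). The endoplasmic reticulum chaperones were 8 of 18 higher and 1 lower. The prefoldins were 3 of 6 higher and 0 lower, although they summed to 1232 CPM in spleen and 1281 CPM in small intestine. Of the other HSP70-class genes 1 of 5 was higher and 2 were lower (median log2 ratio -0.40), with sums of 293 and 268 CPM. HSP70 nucleotide exchange factors and inhibitors were 2 of 7 higher and 1 lower, and heat shock factors and regulators 1 of 3 higher and 1 lower.

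Among J proteins 3 of 15 were higher and 4 lower, shares close to those of all genes tested. The ribosome-bound Dnajc2 was at 147 and 47.1 CPM (3.13), while Dnajb4 was at 6.67 and 21.9 CPM (0.304) and Dnajb14 at 8.43 and 18.4 CPM (0.458). The endoplasmic reticulum J protein Dnajb9 was at 15.4 and 52.3 CPM (0.294).

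With cycling, 11 of 89 other chaperone genes were past 1.5-fold higher in spleen and 5 lower, and 14 of 60 and 4 in small intestine, beside 13.6% and 9.6% of all genes in spleen and 10.8% and 10.9% in small intestine. Dnajc9, a histone-binding J protein, was higher in both (253 and 66.7 CPM in spleen, 3.79, and 265 and 97.9 CPM in small intestine, 2.71), as was Hsp90b1, the endoplasmic reticulum HSP90 (2.67 in both), while Pfdn5 was lower (0.603 and 0.651). With Ccl5, 0 of 67 were higher and 6 lower in spleen, and 1 of 58 higher and 9 lower in small intestine, beside 5.71% and 8.95% of all genes in spleen and 6.87% and 11.2% in small intestine. Splenic Ccl5-high cells had less of the HSP90 co-chaperones Fkbp4 (50.5 and 93.7 CPM, 0.538), Ppid (0.573) and Ptges3 (0.574), and intestinal ones less Pdia4 (32.4 and 76.5 CPM, 0.424) and Fkbp5 (0.472).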

How the data were processed

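Cells of 2 libraries, 1 per tissue, were measured as UMI counts per gene and cell. The authors demultiplexed the reads with Cell Ranger, trimmed them with Trimmomatic and deposited UMI counts from alignment to mm10 (GRCm38); versions were not given in the sources used here, and the labels also list mm8. Groups followed the tissue label. All columns were used.

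From the deposited counts, outlying cells were dropped with scuttle 1.12.0 (log UMIs or log genes too low, or mitochondrial percent too high, by 3 median absolute deviations), which removed 90 splenic and 135 intestinal cells. Cells of every cycle phase and doublets called by Scrublet (scanpy 1.11.5) were kept. Levels are UMIs summed over cells per 1000000 with exact Poisson intervals, ratios carry exact binomial (Clopper-Pearson) intervals of the UMIs of both groups, and shares exact binomial intervals. UMIs of 1 library are no replicates, so there is no test between tissues. Shares were taken after random thinning to 2000 UMIs, which left out 24 splenic and 109 intestinal cells. Clusters are Louvain communities (scran 1.30.0, bluster 1.12.0, 10 neighbours, 20 principal components) on 142 splenic and 82 intestinal highly variable genes (mean count at least 0.05, biological variance and false discovery rate 0.05), leaving out all chaperone and dissociation-associated genes. Likeness used log2(CPM + 10). The ratio script was tested on simulated data. R 4.3.3 and Python 3.11.15 were used.

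The members and all lists were chosen with earlier results of these data known. Named beyond the members were, per comparison, the 4 other chaperone genes with ratios farthest above and below 1 (at least 100 UMIs), 3 dissociation-associated genes either way by tissue and the most abundant in each tissue, the 5 genes most alike across clusters (at least 500 UMIs) and the 5 leading each cluster (detected in 25% of its cells or more). Cct2, Tcp1, Fos, Egr1 and Nr4a1 were named after their values were seen. A cluster was named from at least 3 fixed markers among its top 10 genes. Other totals, centring, weighting, filters, cuts and thinnings were tried.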

Additional observations from a re-analysis of the deposited data

Results flagged for a closer look

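Hspa1a was 2.22-fold higher in Ccl5-high than in Ccl5-low cells of the spleen (21 and 69 UMIs), while in small intestine the ratio was 0.464 (44 and 13 UMIs). These opposite directions drew attention, but the difference was not tested, since each tissue had 1 library, and the UMIs came from few cells of which some held several.

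Cells outside the comparisons, those left out by the quality filter, had more Hsp90aa1 than the cells kept in small intestine, at 433 against 319.9 CPM (ratio 1.35, 1.11 to 1.64). In spleen the cells left out had 497 CPM against 522 CPM in those kept. The intestinal cells left out were 135, with a median of 1533 UMIs and a mitochondrial share of 5.90%, against 1.90% in the intestinal cells kept.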

How the results depend on the processing

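No paired analysis was possible because each tissue had 1 library. Of 172 counts of members under other settings 19 moved by more than 1.5 times, and of 759 values of single members 97 moved beyond their interval. No ratio past 1.5-fold changed sign, but smaller ones did: with cyclone phases the log2 ratio of Hsp90ab1 with cycling went from 0.13 to -0.29 in spleen and from 0.35 to -0.06 in small intestine. For spleen over small intestine, 3 rather than 5 members were past 1.5-fold higher with the mean over cells or cells thinned to 2000 UMIs, and 1 rather than 0 lower (Dnajb1) with the mean over cells, without cells holding Cd8a and Cd8b1, or without cycling cells. In Ccl5-low cells 0 rather than 1 were lower with at least 50 expected UMIs. For cycling in small intestine, the 2 higher members became 0 without mitochondrial, ribosomal, Ccl5, Gzma and Gzmb UMIs in the total, and 1 with the mean over cells, no quality filter, without cells with Foxp3, with the cut at 10, or with cyclone phases, which also gave 1 lower there and 1 higher in spleen. For Ccl5 in spleen, the 1 lower member became 0 with the mean over cells or the cut at 10. Members whose share of cells was higher in small intestine numbered 2 rather than 1 in 3 of 5 other thinnings. With 20 neighbours the same counts of members spanned 2-fold over clusters, 6 and 0. Only 6 intestinal cells had no Ccl5 UMI, and under 100 UMIs of Hspa1a, Hspa1b or Hsph1 in small intestine limit what can be said of them.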
